A study of Mus musculus with 2 samples.

Results

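The genes described here encode the initiation and elongation factors of cytosolic translation, with a few of their inhibitors and modifying enzymes, in a mouse embryonic stem cell line. They were chosen by symbol alone, as genes whose symbol starts with Eif1 to Eif6 (without the Eif2ak kinases) or with Eef1 or Eef2 (without Eef1e1). In total 47 of the 12393 genes with a probe set of their own met this rule, measured by 108 probe sets. A gene with several probe sets (27 of the 47) took its value from the one with the highest mean over both arrays, called the brightest below. Another 19 RefSeq genes that meet the rule, among them Eif1, Eif2s1 and Eif4g1, were not analysed here, and 6 probe sets shared with further genes were set aside.

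Initiation starts when eIF2 carries the initiator tRNA to the small ribosomal subunit, where eIF1, eIF1A, eIF3 and eIF5 help it find the start codon. The eIF4 factors bind the cap of the mRNA and unwind it, and eIF5B helps the large subunit to join. Elongation factor eEF1A then brings each aminoacyl-tRNA, and eEF2 moves the ribosome along by a codon. In embryonic stem cells, as in other cells, phosphorylation of eIF2 and the 4E-BP inhibitors of cap binding are main points where this machinery is regulated.

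Both groups are E14tg2a cells. The shDAB2 group is clone 4 of cells stably transfected with a plasmid for a short hairpin RNA (shDAB2-285) against the endocytic adaptor gene Dab2, and the vector group is clone 9 of cells stably transfected with the control plasmid. Both grew in GMEM with 10% fetal bovine serum, glutamine, antibiotics and 1000 U/ml of leukaemia inhibitory factor. Total RNA of each clone went onto 1 Affymetrix mouse 430A array, so each group is 1 clone measured once. No test across samples exists, no p-value is given, and clone, culture and hairpin cannot be told apart.

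Values are log2 expression values as deposited, given first for the vector clone (with the vector) and then for the shDAB2 clone (with the hairpin), and a difference is the second minus the first. The targeted gene itself was dim, reading 6.64 with the vector and 6.33 with the hairpin on its brightest probe set. Its other 2 probe sets read 6.40 with the vector and 6.35 with the hairpin, and 6.09 and 6.08. These lie below the median of all probe-set values (6.62), where dim signal limits differences. They differed by -0.05 and -0.01, so the lower Dab2 signal rests on 1 of 3 probe sets. All 8 stem cell markers listed, among them Pou5f1, Sox2 and Nanog, exceeded 6.62 on both arrays, the median of all probe-set values and called the floor below. Of 6 fibroblast markers 1 reached the floor, Dcn at 6.55 and 6.62, and of 5 primitive endoderm markers 0 did. Over the 22626 probe sets the correlation of the arrays was r = 0.99, a description across probe sets. In bulk RNA, fewer cells of a type and less RNA per cell cannot be told apart.

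As a set, the translation factor genes were little different between the clones. The median difference was 0.02 on the log2 scale over 47 genes, 26 of them higher and 21 lower in the shDAB2 clone. Over all 12393 genes the median was 0.01, and over the 7269 genes above the floor it was 0.00063. The floor was reached by 45 of the 47, all but Eif4e3 and Eef1aknmt. At a limit of 1.2-fold (a log2 difference of 0.26) 4 members were higher, or 8.51%, against 4.69% of all genes and 7.97% of genes above the floor. Lower by that much were 5, or 10.6%, against 5.21% and 8.8%. Beside genes above the floor these shares are near the background, so they are not a result about translation factors as a group. At 1.5-fold 0 members were higher, against 0.339% of all genes and 0.578% of those above the floor, and 0 were lower, against 0.952% and 1.62%. At 2-fold 0 members were higher (0.0161% and 0.0275%) and 0 lower (0.105% and 0.179%). The SD of the differences was 0.22 over the members and 0.22 over the genes above the floor.

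**Figure D1:**
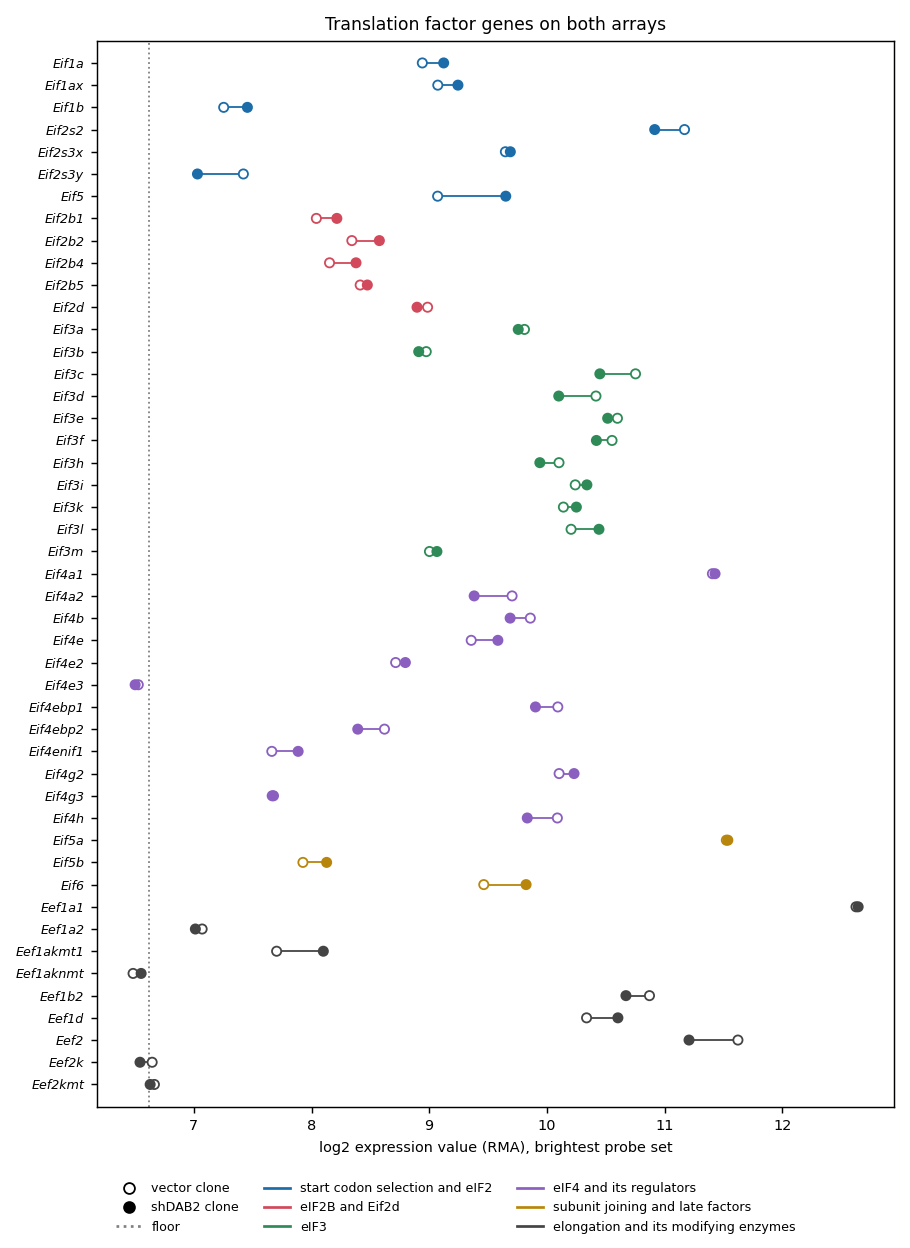
Log2 expression value (x axis) of the 47 translation factor genes (y axis) in the vector clone (open circles) and the shDAB2 clone (filled circles), 1 array each, coloured by role; the dotted line is the floor of 6.62. Most pairs of circles lie close together, and the widest gaps are those of Eif5, Eef2, Eef1akmt1, Eif2s3y and Eif6.

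**Figure D2:**
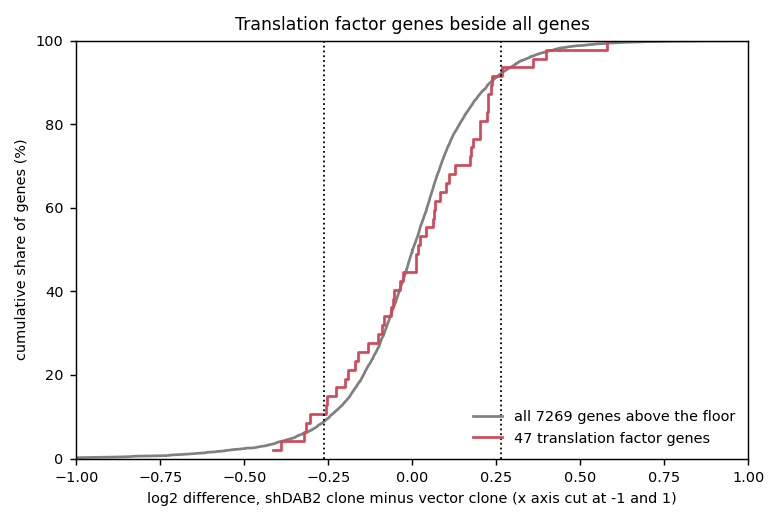
Cumulative share of genes (y axis, %) against the log2 difference, shDAB2 minus vector (x axis), for the 47 translation factor genes and the 7269 genes above the floor; dotted lines mark 1.2-fold. The 2 curves run close to each other, with 4 members beyond the upper and 5 beyond the lower line.

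Agreement among probe sets of the same gene is the one repeat these data offer. In 23 members with 2 or more probe sets above the floor, the brightest and the second gave the same sign in 16 and opposite signs in 7. Among all 2502 genes of this kind the sign was the same in 1893 and not the same in 609. The SD for 1 probe set was 0.099 over the 23 members and 0.11 over the 2502 genes. It reflects probes and transcript variants and holds nothing of the spread between cultures or clones, so differences under about that size are given as values only.

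Eif5 stood out among the members. It encodes the protein that makes eIF2 hydrolyse its GTP once the start codon is found, the step that commits the ribosome to that codon. Its brightest probe set (1454664_a_at) read 9.07 with the vector and 9.65 with the hairpin, a difference of 0.58 or 1.49-fold higher, just short of the 1.5-fold limit. The other probe sets read 8.81 and 9.46, 8.58 and 9.28, and 8.46 and 9.38. All 4 probe sets were thus higher in the shDAB2 clone, by 0.64, 0.71 and 0.93 on the 3 dimmer ones. The mean over the 4 was 0.71. Of the 7269 genes above the floor, 47, Eif5 among them, had a difference at least as large as that of its brightest probe set.

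The window around the annotated start of Eif5 is shown because the gene has the largest difference of the set. It runs from 250 bases before to 50 after the start (RefSeq, GRCm38.p6), with CCAAT in capitals, a motif bound by the factor NF-Y and searched on both strands. The 2 matches lie just after the annotated start. At least 1 match stands in 37.4% of all 32851 such windows and in 23.5% of the 51 windows at hand for 37 members. Counted by gene, where a gene can have several windows, the shares are 41.1% of all genes with a window and 32.4% of such members, 12 of 37.
Eif5, chr12:111537851-111538150, plus strand: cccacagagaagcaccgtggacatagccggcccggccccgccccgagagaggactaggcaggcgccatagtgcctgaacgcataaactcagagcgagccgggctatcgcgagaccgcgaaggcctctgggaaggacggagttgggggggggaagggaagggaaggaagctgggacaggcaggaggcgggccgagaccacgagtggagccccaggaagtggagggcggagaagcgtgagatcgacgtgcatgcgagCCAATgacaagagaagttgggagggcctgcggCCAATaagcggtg

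Other factors that work at the start codon went both ways. The eIF1A genes, whose product keeps the scanning ribosome open, were a little higher: Eif1a read 8.94 with the vector and 9.12 with the hairpin, and the X-linked Eif1ax 9.07 and 9.24. Their second probe sets differed by 0.22 and 0.10. Eif1b, a relative of the start codon selection factor gene Eif1, read 7.25 and 7.46. The products of Eif1a and Eif1ax are near-identical, so probes may not keep the pair apart.

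The subunits of eIF2 measured here were lower or unclear. Eif2s2 encodes the beta subunit, which contacts eIF5 and eIF2B. It read 11.17 with the vector and 10.92 with the hairpin, a difference of -0.25, and all 5 of its probe sets above the floor were lower, by -0.06 to -0.25. The gamma subunit, which holds the GTP and the tRNA, is encoded by a pair of genes on the sex chromosomes. Y-linked Eif2s3y read 7.42 and 7.03, a difference of -0.39 or 1.31-fold lower, on its 1 probe set. X-linked Eif2s3x differed by 0.04 on its brightest probe set, which read 9.65 and 9.69, but by -0.11 and -0.25 on the other 2. The brightest has the suffix _x_at, for probes that may match several transcripts. The value of -0.25 is from the probe set without such a suffix. The direction of Eif2s3x is therefore unsettled.

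The gene pair Eif2s3x and Eif2s3y is shown next over 35 bases on each side of the annotated start, because the gamma subunit is made from both. Capitals mark a pyrimidine tract, defined as a C followed by at least 5 further C or T bases on the sense strand within 25 bases of the start. Both genes have a tract of this kind.
Eif2s3x, chrX:94212617-94212686, minus strand: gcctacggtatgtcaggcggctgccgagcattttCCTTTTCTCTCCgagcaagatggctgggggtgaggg
Eif2s3y, chrY:1010560-1010629, plus strand: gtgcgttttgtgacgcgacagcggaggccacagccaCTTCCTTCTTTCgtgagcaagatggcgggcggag

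Genes of eIF2B, the exchange factor that reloads eIF2 with GTP and is blocked by phosphorylated eIF2, differed by small amounts, all positive on the brightest probe set, and Eif2b5 was level. Eif2b1 read 8.04 with the vector and 8.22 with the hairpin, Eif2b2 8.34 and 8.58, Eif2b4 8.15 and 8.38, and the catalytic subunit gene Eif2b5 8.41 and 8.47. The differences ran from 0.06 to 0.23, so 0 of the 4 reached 1.2-fold. The second probe set of Eif2b2 gave -0.03, and the mean over its 3 was 0.14. Eif2d, whose product can deliver tRNA to the ribosome without eIF2, differed by -0.09, with 3 of 3 probe sets above the floor lower.

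The eIF3 complex, the large scaffold on the small ribosomal subunit, was split between its subunits. Of 11 subunit genes 7 were lower and 4 higher in the shDAB2 clone, with a median of -0.06. Eif3c read 10.75 with the vector and 10.45 with the hairpin, a difference of -0.30, and its other probe sets gave -0.28, -0.23 and -0.55. Eif3d, whose product can itself bind the cap of some mRNAs in human cells, read 10.42 and 10.10 on its 1 probe set, a difference of -0.32 or 1.24-fold lower. These were the 2 members of the complex past 1.2-fold.

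The opposite end of the complex was held by Eif3l, at 10.21 with the vector and 10.44 with the hairpin, a difference of 0.24 (0.10 as the mean with its probe sets below the floor). Its partner Eif3k read 10.14 and 10.25. In the human complex the subunits c, d, e, k and l form 1 module, and within it the mouse genes ranged from -0.32 to 0.24. The scaffold gene Eif3a differed by -0.05 on its brightest probe set and was lower on 4 of 4, down to -0.28. Among the subunits with the deubiquitinase-related MPN fold, Eif3f differed by -0.13 and Eif3h by -0.16. The core subunit gene Eif3b was at -0.06 and Eif3m at 0.06. Probe sets disagreed in sign for Eif3e (-0.08 and 0.14) and for Eif3i (0.10 and -0.16), so neither has a direction here.

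Within the cap-binding machinery, the cap-binding protein gene was higher and the inhibitor gene Eif4ebp1 lower on their probe sets above the floor, by amounts under 1.2-fold, while a second inhibitor gene was uneven. Eif4e read 9.36 with the vector and 9.58 with the hairpin, a difference of 0.23, with 0.24 on the second probe set. The inhibitor gene Eif4ebp1, a known target of the stress factor ATF4, read 10.09 and 9.90, a difference of -0.19, with -0.14 on the second probe set. Eif4ebp2, for a related inhibitor, read 8.62 and 8.39, a difference of -0.23. Its second probe set gave -0.18, but the next gave 0.05 and the 2 below the floor -0.09 and 0.17. The mean over its 5 probe sets was only -0.06, so its direction is uncertain. Eif4enif1, which encodes the transporter that carries eIF4E into the nucleus, was 0.22 higher on its 1 probe set.

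The helicase genes of the eIF4A family had unequal values. Eif4a1, which supplies most of the helicase in dividing cells, read 11.41 with the vector and 11.43 with the hairpin on its brightest probe set. The other Eif4a1 probe sets differed by -0.0035 and 0.16. The related gene Eif4a2 read 9.70 and 9.38, a difference of -0.32 or 1.25-fold lower, on its 1 probe set. Eif4b, whose product stimulates the helicase, read 9.86 and 9.69, and its 3 probe sets were all lower, by -0.07 to -0.34. Eif4h, with a like role, was lower on its brightest probe set (-0.26) but not on the second (0.11), which leaves its direction unsettled.

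Eif4g2 encodes DAP5, a relative of the eIF4G scaffold that lacks the site for eIF4E and is needed for mouse embryonic stem cells to differentiate. It read 10.10 with the vector and 10.23 with the hairpin, a difference of 0.13. The other 2 probe sets above the floor gave 0.22 and 0.51, so all 3 were higher but by unequal amounts. Eif4g3 was level, at 7.67 and 7.68. Eif4e2, a cap-binding relative tied to repression, differed by 0.08 and -0.02 on its probe sets above the floor. Eif4e3 lay below the floor on both arrays, at 6.53 and 6.50.

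Late initiation factors were higher or level. Eif6 encodes a factor that keeps the large ribosomal subunit from joining too early and also takes part in building it. It read 9.46 with the vector and 9.82 with the hairpin, a difference of 0.36 or 1.28-fold higher, on its 1 probe set. Eif5b, the subunit joining GTPase, read 7.93 and 8.13, a difference of 0.20, with 0.09 on the second probe set and 0.07 as the mean over its 3. Eif5a, the hypusine-bearing protein that helps ribosomes past difficult stretches, was level at 11.52 and 11.54 on its brightest probe set. The second Eif5a probe set differed by 0.12.

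**Figure D3:**
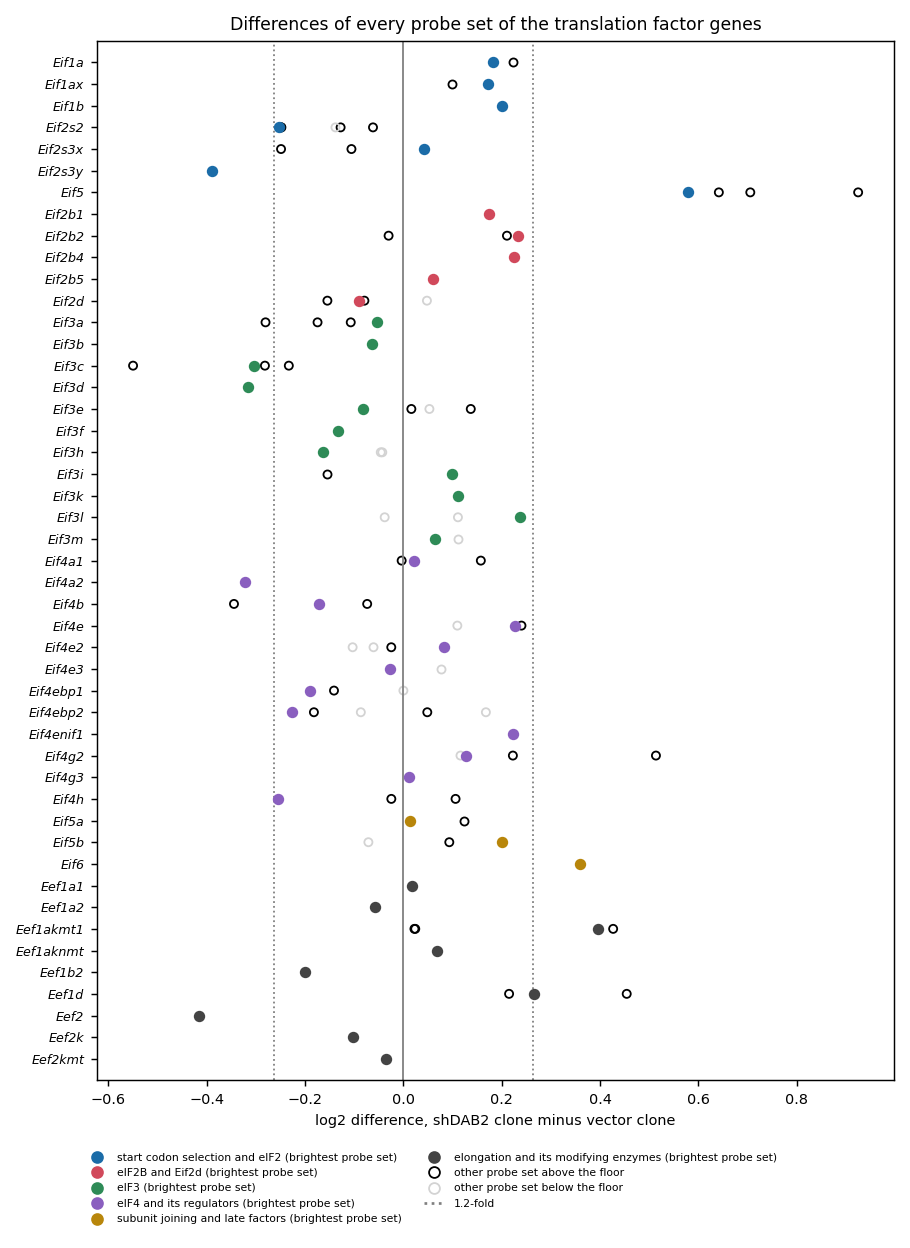
Log2 difference, shDAB2 minus vector (x axis), for each of the 108 probe sets of the 47 genes (y axis): filled circles are the brightest probe set, coloured by role, and open circles the others, grey where below the floor; dotted lines mark 1.2-fold. All 4 probe sets of Eif5 lie at or beyond 0.58, and those of Eif3c all lie below -0.23.

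The genes of elongation held the largest negative difference of the set, that of Eef2. They also held 2 of the 4 members at least 1.2-fold higher, the factor gene Eef1d and the enzyme gene Eef1akmt1. Eef2, the gene for the translocating factor, read 11.62 with the vector and 11.21 with the hairpin, a difference of -0.42 or 1.33-fold lower. It rests on 1 probe set. Among genes above the floor 250, with Eef2 counted, had a difference this low or lower. Eef1a1, which encodes the main tRNA carrier, read 12.63 and 12.64, close to the top of the range at 12.86, where arrays can compress differences. Abundant genes such as Eef1a1 and Eif4a1 have processed pseudogenes that probes may also match, which makes their values less certain. Its relative Eef1a2, best known from muscle and neurons, read 7.07 and 7.01.

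The exchange factors that recharge eEF1A with GTP went apart. Eef1b2 read 10.87 with the vector and 10.67 with the hairpin, a difference of -0.20 on 1 probe set. Eef1d read 10.34 and 10.60, a difference of 0.27, with 0.22 and 0.45 on its other probe sets. After cyclic loess it was 0.25, under the 1.2-fold limit. Eef1akmt1, which encodes a lysine methyltransferase of eEF1A, read 7.70 and 8.10, a difference of 0.40 or 1.32-fold higher. Its second probe set gave 0.43, but the other pair gave 0.02 each, so that the mean over the 4 was 0.22, under the 1.2-fold limit. The eEF2 kinase gene Eef2k (-0.10) and the methyltransferase genes Eef2kmt (-0.04) and Eef1aknmt (0.07) lay close to or below the floor, where RMA shrinks differences.

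Elongation factor mRNAs and several initiation factor mRNAs of vertebrates are known to begin with a pyrimidine tract (TOP) through which the kinase mTOR and the protein LARP1 control their translation. The windows of Eef2, Eef1a1 and Eif3f are shown over 35 bases on each side of the annotated start, with the tract defined above in capitals. Each holds a tract, and the array differences of the 3 genes were -0.42, 0.02 and -0.13. Array values measure mRNA amount and not translation. The tract stood in 38.5% of all genes with a window and in 40.5% of such members, 15 of 37. A match of letters is a description of the window, not a TOP element.
Eef2, chr10:81176596-81176665, plus strand: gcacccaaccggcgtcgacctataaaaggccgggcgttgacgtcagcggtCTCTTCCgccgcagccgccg
Eef1a1, chr9:78481690-78481759, minus strand: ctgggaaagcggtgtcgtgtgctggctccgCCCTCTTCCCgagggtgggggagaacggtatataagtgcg
Eif3f, chr7:108934380-108934449, plus strand: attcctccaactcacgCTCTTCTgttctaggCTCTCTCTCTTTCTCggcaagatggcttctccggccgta

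The element TGATGNAA, which ATF4 and C/EBP proteins bind, was searched on both strands of the same windows. It stood in 4.51% of all genes with a window and in 5.41% of such members, Eef2k and Eif2s3x. The median difference of members with and without a match was 0.17 and -0.06 for CCAAT (12 and 25 genes), 0.04 and -0.01 for the tract (15 and 22) and -0.03 and 0.01 for TGATGNAA (2 and 35). These splits were made after the values were seen, and they describe the members only. The same medians over all genes were not computed, so no background stands beside them. Eif5, whose window was shown for its large difference, is among the 12 with CCAAT. The windows of Eif1a, Eif3e, Eif3h, Eif3i, Eif4ebp1, Eif4e3, Eif4g2, Eif6, Eef1d and Eef1akmt1 were not used here.

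Genes next to these factors in the pathway, 56 in 8 lists by role, also differed little between the clones. Of 45 measured, 27 were higher and 18 lower, where 52.9% and 45.9% of all genes were, and their median was 0.05. The floor was reached by 42 of the 45. At 1.2-fold 3 of the 45 were higher and 4 lower, beside 7.97% and 8.8% of genes above the floor. At 1.5-fold 0 were higher and 0 lower, beside 0.578% and 1.62%. These counts are not a result about the lists as a group. Among the eIF2 kinases, Eif2ak1, the heme-regulated kinase, read 7.38 with the vector and 7.70 with the hairpin, and its second probe set also gave 0.31. Ppp1r15b, which encodes a partner of the phosphatase that reverses their action, read 8.40 and 7.93 on its brightest probe set, but the second differed by only -0.07.

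Termination and recycling genes had positive differences in 7 of 8 cases, where 52.9% of all genes did, with a median of 0.08. Of the 7, Mcts1, Denr, Gspt2, Gspt1 and Hbs1l lay at 0.08 to 0.10 on the brightest probe set, under the probe-set SD. The second probe set gave 0.35 for Gspt1, 0.02 for Denr and -0.09 for Hbs1l. The release factor gene Etf1 read 9.45 with the vector and 9.75 with the hairpin, with 0.10 on its second probe set, and the recycling ATPase gene Abce1 read 8.99 and 9.14, with 0.27 on its second. The list of mTORC1 and kinases of eIF4 factors had 4 of 10 higher and a median of -0.04. Within it Larp1 read 9.69 and 9.31, a difference of -0.38, and the mTORC1 inhibitor gene Tsc2 read 7.70 and 7.42, a difference of -0.28, each on 1 probe set.

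The poly(A)-binding list had 3 of 5 genes higher and a median of 0.05, led by Paip2 (0.22), an inhibitor of the poly(A)-binding protein, and Paip1 (-0.13), an activator. For mitochondrial translation factors 3 of 5 were higher, with a median of 0.07, and the elongation factor gene Gfm1 differed by 0.34 but by 0.05 on its second probe set. Tufm, the mitochondrial tRNA carrier gene, differed by 0.14 but by 0 on its second probe set. All 3 helicases and ATPases were higher, Dhx9 by 0.18 and Ddx3x by 0.06, with 0.44 and 0.18 on their second probe sets. The enzymes that make hypusine on eIF5A and diphthamide on eEF2 were 3 higher and 3 lower, with Dhps at -0.21 and Dph5 at -0.20. The second probe sets of Dhps and Dph5 were level, at -0.02 and -0.0048. Eefsec, the carrier of selenocysteine tRNA, differed by -0.27, and Eef1e1, a scaffold protein of the tRNA synthetase complex, by 0.23.

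**Figure D4:**
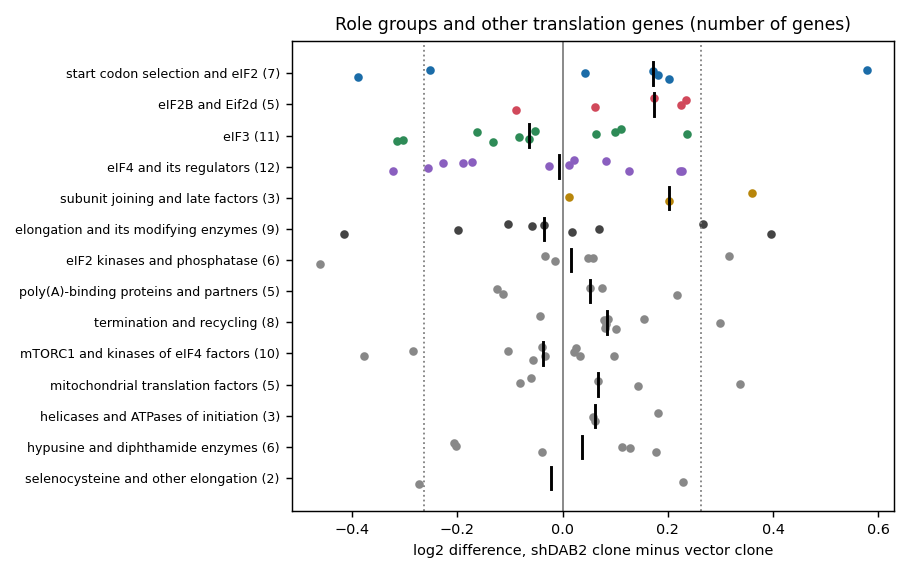
Log2 difference, shDAB2 minus vector (x axis), of the 47 members in 6 role groups (coloured) and of 45 other translation genes in 8 lists (grey), 1 point per gene on its brightest probe set; black bars are medians and dotted lines 1.2-fold. Each group and list straddles or lies near 0, and Eif5 is the farthest point.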

How the data were processed

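RNA from 1 shDAB2 clone and 1 vector clone was measured on 1 array each. Per the submitters' processing notes, the deposited table of log2 values, 1 per probe set and array, was made with RMA, which subtracts background, quantile-normalizes arrays and summarises probes. Not given in the sources used here are its version, the log base and any further arrays normalized together. The base was taken as log2 because RMA writes log2. Deposited values ran from 5.65 to 12.86, and the largest gap between the sorted values was 0.07.

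Of 22626 probe sets, the 20380 that the platform annotation gives to 1 gene were used. All 47 member gene IDs matched RefSeq (GRCm38.p6), with 0 symbols altered. The floor is the median of all values, 6.62. Differences were computed in Python 3.11.15 with pandas 2.3.3, and cyclic loess in limma 3.58.1 (R 4.3.3). With 1 array per group no test exists, the number of arrays limits the precision, and sizes are described at 1.2-fold, 1.5-fold and 2-fold. Counting was tested on simulated data. Every member is named. Of the other lists every gene is counted and the 2 with the largest absolute difference are named; Mcts1, Denr, Gspt2, Gspt1 and Hbs1l were named after their values were seen. The members and lists were chosen with earlier results of these data known, and the CCAAT and tract searches and the bases shown after the values were seen. Alternatives were cyclic loess, median centring, each gene's mean over its probe sets, leaving out probe sets with the suffix _s_at, _x_at or _a_at (probes that may match several transcripts), and the floor.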

Additional observations from a re-analysis of the deposited data

How the results depend on the processing

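The median difference of the translation factor genes stayed within the probe-set SD of 0.11 under every alternative, from -0.03 without the suffixed probe sets (_s_at, _x_at, _a_at) to 0.02 after median centring. That removal left 35 genes, with 2 higher at the 1.2-fold limit and 1, Eif5, at the 1.5-fold limit. The lower count of 2 comes from construction, since Eef1d and Eif6 had suffixed probe sets only. Averaging each gene's probe sets also put 1 gene, Eif5, at least 1.5-fold higher, and took Eef1akmt1 below 1.2-fold. Cyclic loess gave 3 genes higher and 7 lower at 1.2-fold, with Eef1d lost. Shares over all genes were not computed after loess, averaging or removal of suffixed probe sets, so these counts describe the members only. At 2-fold the counts were 0 and 0 throughout. Counting factors and subunits only, an alternative chosen after seeing the data, left 40 genes with 3 higher and 5 lower. The 9 members past 1.2-fold kept their direction wherever they had a value under the 4 alternatives that alter values. Part of this was fixed in advance, since median centring shifts every gene alike. Averaging could not change Eef2, Eif2s3y, Eif3d, Eif4a2 or Eif6, each with 1 probe set. Removing suffixed probe sets could not change Eef2, Eif2s3y, Eif3d or Eif4a2 either. Of 176 single-gene values 161 moved by less than 0.11 and 15 by more, and 10 small differences changed sign. Many of the 161 could not move by that much, for the same reasons. Averaging, which can change only the 27 members with several probe sets, moved 11 by more than 0.11. For the members near the floor dim signal also limits the differences, and for all of them the 1 array per clone does. No paired analysis was possible because each group holds 1 array.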
